A study of Homo sapiens with 23 samples.

Results

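The 4 human HOX clusters were described in peak lists of replication start sites and of chromatin binding from 2 established cell lines. The windows were taken from the hg19 build as HOXA on chromosome 7 from 27130000 to 27290000 (160 kb), HOXB on chromosome 17 from 46600000 to 46810000 (210 kb), HOXC on chromosome 12 from 54330000 to 54450000 (120 kb) and HOXD on chromosome 2 from 176950000 to 177060000 (110 kb). A region of any list counted as a member where at least 1 bp of it lay in a window. Of the 1741457 regions in the 21 lists, 1030 met this rule, with 266 in HOXA, 292 in HOXB, 258 in HOXC and 214 in HOXD, and a further 3686 were counted in the flanks of 500 kb on each side. The windows stand for 38 named HOX genes, 10 in HOXA, 10 in HOXB, 9 in HOXC and 9 in HOXD. All 38 were found on these chromosomes in RefSeq's gene order, but their places in hg19 were not checked.

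HOX genes encode homeodomain transcription factors that give cells their position along the head-to-tail axis of the embryo. Their order in a cluster follows the order of the body regions in which they act, and in cells that do not use them a cluster is typically held silent as one domain by Polycomb proteins. DNA replication starts at origins, where the MCM helicase (of which MCM2 is a subunit) is loaded before S phase and fires during it. SIRT1 is a NAD-dependent protein deacetylase, and acetylated lysine 16 of histone H4 is one of its substrates.

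The 7 HCT116 lists and 14 K562 lists were used, each from 1 library. HCT116 is a colon carcinoma line, and K562 is a chronic myelogenous leukemia line. Replication starts were read from nascent strands, short new DNA that resists exonuclease. In HCT116 this was done in a SIRT1-depleted clone, in the depleted cells rescued with wild-type SIRT1, in the depleted cells rescued with the T530A mutant of SIRT1, and in wild-type cells held for 24 h in 200 nM aphidicolin, which blocks replicative DNA polymerases, and then grown without drug for 24 h. The first 3 of these share the depletion, and nascent strands of wild-type HCT116 cells without drug were not analysed here. Chromatin immunoprecipitation of unsynchronized, untreated HCT116 cells used antibodies to SIRT1 phosphorylated at T530 (pSIRT1), MCM2 phosphorylated at S139 (pMCM2) and H4K16ac. In untreated K562 cells, nascent strands came from early, middle and late S fractions. The pSIRT1 lists of K562 came from unfractionated cells and from 5 fractions (G1, the early, middle and late parts of S phase, and G2), and pMCM2 lists came from the same 5 fractions. All cells grew in DMEM with 10% serum. Libraries of a cell line are different conditions and not replicates, so no test was made, no p-value is given, and the spread between cultures is unknown.

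The lists hold 24359 to 230760 regions and cover 22.98 to 384 Mb of the genome. The shortest cover is that of K562 early S pSIRT1, whose regions have a median width of 400 bp against 800 to 2800 bp in the other K562 pSIRT1 and pMCM2 lists. Sequencing depth is unknown, and the middle S and G2 pSIRT1 lists of K562 hold decimal scores in place of whole read counts. The main measure is therefore the covered share, the percent of a window's length that lies in regions of a list. It was set against the covered share of both flanks together, as log2 of the ratio after 1 percentage point was added to each. A cluster was called above or below its flanks where that ratio was at least 2-fold, and the same rule over 18828 tiles of 150 kb gives the background share of each list.

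The CG pairs of the gene starts in these windows are shown because CG-rich starts are a known sequence feature of HOX genes and of many human origins. RefSeq promoter sequences of GRCh38.p14 (250 bases before to 50 after a start) matched 20 of the 38 genes, with 26 distinct sequences. Their median ratio of observed to expected CG pairs was 0.855 against 0.578 over 34794 promoters of the genome, while their median GC content of 58.0% was close to the 58.7% of all promoters. These sequences stand mostly for HOXA (16, several of them of HOXA3) and HOXD (8), with 1 each from HOXB and HOXC, and the HOXB one had a CG ratio of 0.436, below the median of all promoters. The first sequence is from the cluster's posterior end and has 44 CG pairs, the most of any. The second is 1 of several starts of HOXA3 and has 0, and the others come from HOXB, HOXC and HOXD. Each is printed 5′ to 3′ on the gene's strand, with CG pairs in capitals.
HOXA13 (chr7:27200042-27200341, minus strand): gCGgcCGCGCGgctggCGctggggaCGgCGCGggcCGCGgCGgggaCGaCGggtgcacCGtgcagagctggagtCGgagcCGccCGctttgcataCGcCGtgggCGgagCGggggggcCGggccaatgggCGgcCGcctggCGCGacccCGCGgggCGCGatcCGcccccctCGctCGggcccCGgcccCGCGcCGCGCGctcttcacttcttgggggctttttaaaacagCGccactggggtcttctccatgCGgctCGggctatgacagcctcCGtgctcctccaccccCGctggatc
HOXA3 (chr7:27119546-27119845, minus strand): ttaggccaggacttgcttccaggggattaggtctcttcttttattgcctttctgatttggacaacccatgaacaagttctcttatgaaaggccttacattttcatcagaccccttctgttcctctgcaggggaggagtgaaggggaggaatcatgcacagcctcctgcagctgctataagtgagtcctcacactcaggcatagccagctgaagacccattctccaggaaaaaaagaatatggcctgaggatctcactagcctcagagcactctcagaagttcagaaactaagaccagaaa
HOXB1 (chr17:48530962-48531261, minus strand): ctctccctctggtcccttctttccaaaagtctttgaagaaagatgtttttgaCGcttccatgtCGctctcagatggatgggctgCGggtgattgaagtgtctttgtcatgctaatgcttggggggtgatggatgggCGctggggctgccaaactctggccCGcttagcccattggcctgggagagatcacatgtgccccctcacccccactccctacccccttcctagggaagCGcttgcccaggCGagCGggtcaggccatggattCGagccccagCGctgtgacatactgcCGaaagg
HOXC4 and HOXC5 (chr12:54016638-54016937, plus strand): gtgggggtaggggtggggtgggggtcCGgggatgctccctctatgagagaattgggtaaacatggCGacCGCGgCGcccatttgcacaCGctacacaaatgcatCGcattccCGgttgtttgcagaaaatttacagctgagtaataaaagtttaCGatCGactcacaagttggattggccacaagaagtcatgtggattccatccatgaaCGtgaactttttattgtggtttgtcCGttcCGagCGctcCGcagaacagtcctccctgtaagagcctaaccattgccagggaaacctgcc
HOXD13 (chr2:176092471-176092770, plus strand): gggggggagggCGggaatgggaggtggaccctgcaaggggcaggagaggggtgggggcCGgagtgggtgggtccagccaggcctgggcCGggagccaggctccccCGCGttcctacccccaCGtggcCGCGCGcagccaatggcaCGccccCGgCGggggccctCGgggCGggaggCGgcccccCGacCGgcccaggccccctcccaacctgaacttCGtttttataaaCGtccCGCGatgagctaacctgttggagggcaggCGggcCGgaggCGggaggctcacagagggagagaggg

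HOXA13 and HOXD13 pattern the distal limb and the urogenital tract, HOXB1 acts in the hindbrain, and HOXA3 acts in neck organs such as the thymus. A run motif of G-quadruplexes, a 4-stranded DNA fold often described near human origins, was searched as 4 runs of GGG separated by 1 to 7 bases of any kind (N), on both strands. It was present in 8 of the 26 HOX sequences (30.8%) and in 24.8% of all promoters. These coordinates are of GRCh38.p14 and cannot be set beside the hg19 regions, so no region below was assigned to a gene start.

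The clusters also hold microRNA genes, shown here because 3 clusters carry near-identical ones. The seed, bases 2 to 8, is in capitals, and the sequences are from RefSeq, GRCh38.p14.
hsa-miR-196a-5p (MIR196A1 in HOXB, chr17:48632532-48632553, minus strand, and MIR196A2 in HOXC, chr12:53991762-53991783, plus strand): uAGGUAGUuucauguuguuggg
hsa-miR-196b-5p (MIR196B in HOXA, chr7:27169528-27169549, minus strand): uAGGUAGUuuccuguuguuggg
hsa-miR-10a-5p (MIR10A in HOXB, chr17:48579904-48579926, minus strand): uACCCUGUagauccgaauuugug
The miR-196 sequences of the 3 clusters share the seed AGGUAGU, and miR-10a has the seed ACCCUGU. MiR-196 is known to target HOX transcripts. Among the listed genes, lower coordinates begin with HOXA2, HOXB1, HOXC13 and HOXD13, so HOXA and HOXB run from anterior-acting to posterior-acting genes with rising coordinate, and HOXC and HOXD run the other way.

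In HCT116, nascent-strand regions filled much of all 4 clusters. HOXA was covered to 47.6% in the wild-type rescue, 75.1% in the SIRT1-depleted clone, 37.6% in the T530A rescue and 42.4% after aphidicolin. Its flanks were covered to 7.24 to 9.82%, so every HOXA value was well above every flank value. HOXD, with the limb and genital regulators, was covered to 43.1, 57.8, 50.7 and 43.1% in the same order, against 7.16 to 8.68% in its flanks. HOXA and HOXD thus stood out from surroundings that held few start sites, with log2 ratios of 2.17 to 3.19 and 2.19 to 2.85.

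HOXB and HOXC lay in flanks that held many start sites too. HOXB was covered to 64.4, 61.7, 57.3 and 61.3% in the wild-type rescue, the depleted clone, the T530A rescue and after aphidicolin, with flanks of 22.3 to 27.6%. HOXC reached 73.5, 85.0, 70.2 and 60.2% in that order, with flanks of 32.1 to 35.5%. The log2 ratios were 1.13 to 1.32 for HOXB and 0.87 to 1.38 for HOXC. At least 2-fold above flanks were 15 of the 16 pairs of cluster and list, and the exception was HOXC after aphidicolin at 0.87. The background share of tiles called above was 9.93% in the wild-type rescue, 9.29% in the depleted clone, 8.28% in the T530A rescue and 7.87% after aphidicolin. The HOXB and HOXC calls depended on the setting: with flanks of 1000 kb or with region middles in place of covered share, 0 of 7 HCT116 lists were called in HOXB (6 in the main setting). In HOXC 1 of 7 was called (4 in the main setting) with flanks of 250 kb, with the higher-coordinate flank only or with region middles.

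**Figure D1:**
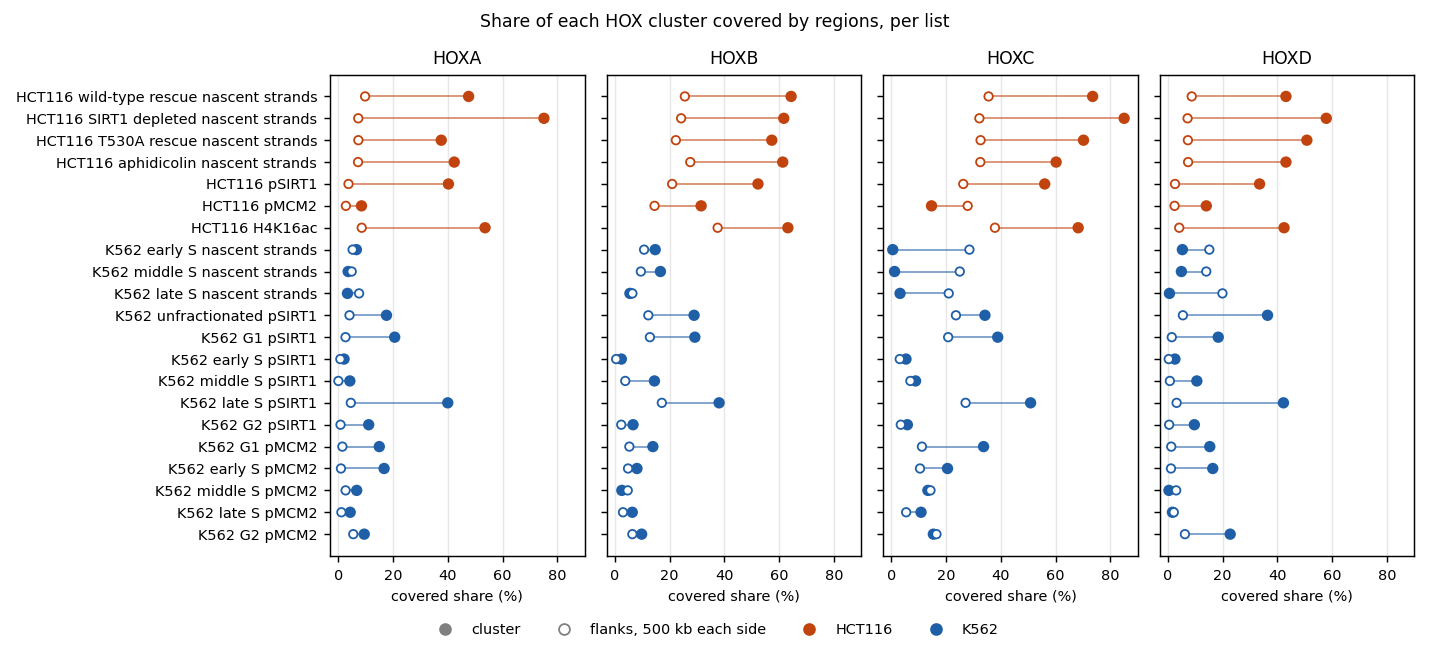
Covered share (x axis, percent of the window) of each HOX cluster (filled points) and of its 500 kb flanks (open points) in each of the 21 lists, HCT116 in orange and K562 in blue, 1 library per row. The 4 HCT116 nascent-strand points of every cluster lie between 37.6 and 85.0%, and the 3 K562 nascent-strand points lie between 0.50 and 16.7%.

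The cover in HCT116 came from long regions. The longest was in HOXB of the depleted clone, at 46653001 to 46725400 on chromosome 17, 72.4 kb long with 4306 reads. In the wild-type rescue a region of 64.6 kb with 3349 reads lay at 46627001 to 46691600. HOXB was thus filled by only 6 to 11 regions per nascent-strand list, while HOXA held 14 to 20. In HOXA the region with most reads spanned 27190001 to 27207200 in the wild-type rescue (640 reads) and 27181201 to 27202000 in the depleted clone (892 reads). In HOXC the corresponding regions were 54348001 to 54374000 (1107 reads) and 54337401 to 54367400 (1503 reads). In HOXD they were 176961601 to 176971400 (396 reads) and 176961801 to 176972000 (630 reads). The deposited reads are the authors' values and are not scaled between libraries. Per covered kb, the 16 nascent-strand values of the clusters were 0.86 to 1.32 times the average of their own list, so the clusters stood out by the length covered more than by the reads per kb within it.

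Against the wild-type rescue, the depleted clone covered more of HOXA, HOXC and HOXD. The differences were 27.5 percentage points in HOXA, 11.5 in HOXC and 14.7 in HOXD, or log2 ratios of 0.65, 0.21 and 0.42. HOXB differed by -2.67 points (log2 ratio -0.06). The flanks of the same clusters had log2 ratios of -0.38 (HOXA), -0.14 (HOXC), -0.25 (HOXD) and -0.08 (HOXB), and over the whole genome the ratio was 0.03. Cover in HOXA, HOXC and HOXD was therefore higher in the depleted list while cover beside them was lower. These sizes were not rare: 77.1% of tiles had a lower ratio than HOXA, 69.3% than HOXD, 60.2% than HOXC and 41.1% than HOXB. The depleted and rescued cells are labelled clones with 1 library each, so clone and genotype cannot be told apart. The ratio kept its sign in all 5 alternatives in HOXA (0.61 to 1.03), HOXC (0.11 to 0.35) and HOXD (0.38 to 0.89).

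The T530A rescue covered less of HOXA than the wild-type rescue (log2 ratio -0.33), and about the same of HOXB (-0.16) and HOXC (-0.07). HOXD was covered more (0.23). The flanks had ratios of -0.37 (HOXA), -0.19 (HOXB), -0.12 (HOXC) and -0.23 (HOXD), and the whole genome had -0.11. The T530A ratio of HOXA was thus no lower than that of its flanks. Of the tiles, 30.1% had a lower ratio than HOXA and 69.0% a lower one than HOXD. After aphidicolin the ratios were -0.16 in HOXA, -0.07 in HOXB, -0.28 in HOXC and 0.00 in HOXD, against -0.22 over the genome. Scaling by flanks or genome, or ranking regions by reads, turned the sign of 6 of the 7 ratios that were not 0 in at least 1 alternative, and HOXC after aphidicolin kept its sign. All 3 comparisons share the wild-type rescue list. The aphidicolin list is of wild-type cells and that reference is of depleted, rescued cells, so drug and cell background cannot be told apart.

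**Figure D2:**
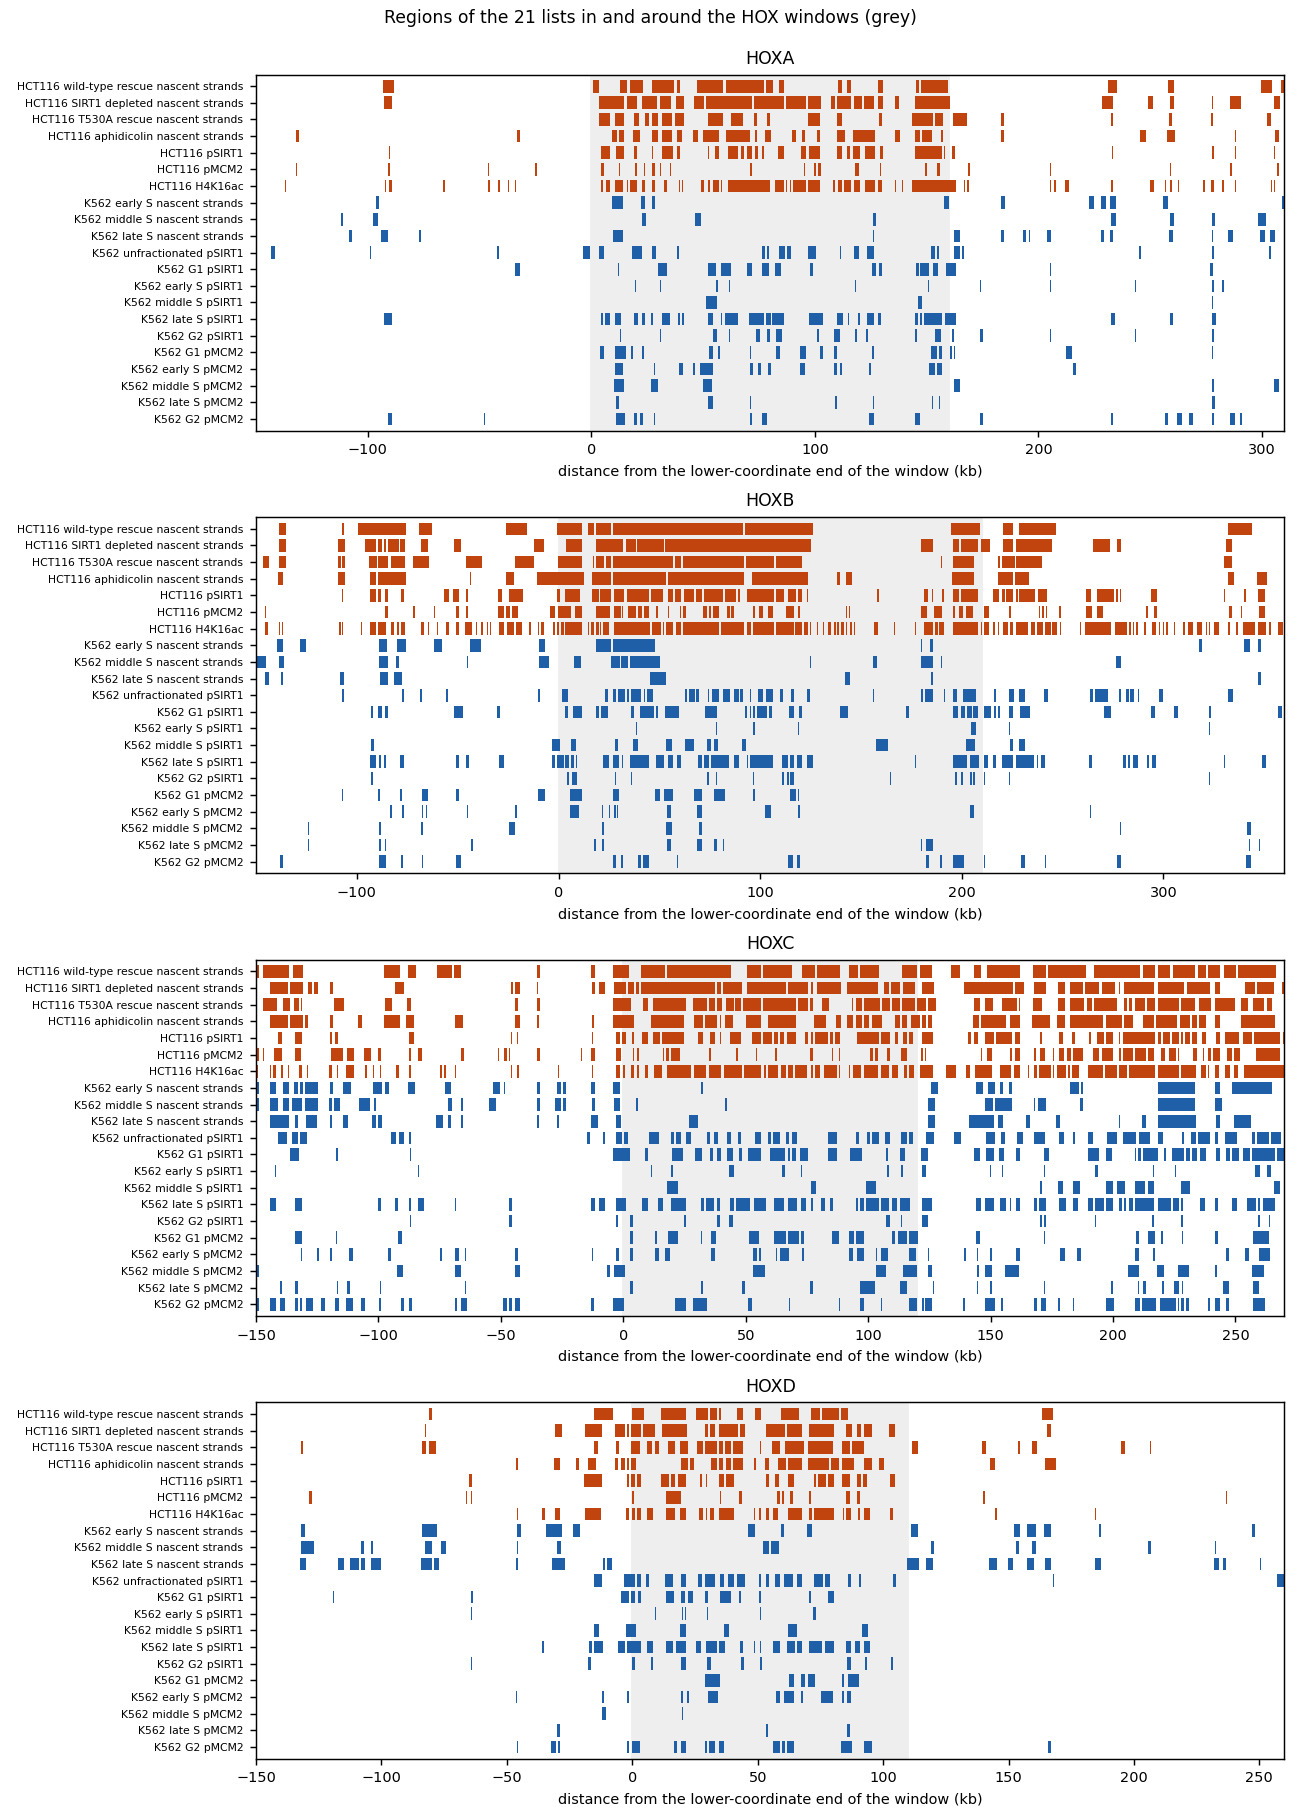
Regions of each list (rows, HCT116 in orange, K562 in blue) in the 4 windows (grey) and 150 kb beside them, by distance in kb from the lower-coordinate end of the window. The HOXB row block shows long HCT116 nascent-strand regions up to about 125 kb and an almost bare stretch after it, and the HOXC block shows few K562 nascent-strand regions inside the grey window.

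Inside the windows, cover was uneven. In 5 kb bins counted as covered at 50% or more, all 4 HCT116 nascent-strand lists covered 22 of 42 bins in HOXB, 13 of 24 in HOXC, 6 of 32 in HOXA and 4 of 22 in HOXD. Bins were not counted in the flanks or over the genome, so these counts have no background share. HOXB had the longest stretch without a covered bin in any HCT116 list, 55 kb at 46725001 to 46780000, on the HOXB13 side of the window. Over it the HCT116 nascent-strand lists covered 0 to 7.64%, pSIRT1 covered 2.18%, pMCM2 2.55% and H4K16ac 20.7%. Past the stretch, the bins from 46795001 to 46805000 were covered in all 7 HCT116 lists. HOXB13, a regulator of hindgut and prostate development, is the last listed gene on that side, and MIR196A1 comes before it in gene order. Neither gene was placed in hg19, so neither was assigned to the bare stretch. Bare stretches of 15 kb were found in HOXA at 27260001 to 27275000 and in HOXD at 177045001 to 177060000, and HOXC had no bin without an HCT116 list.

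The bins covered in most lists were spread over the windows. In HOXA it was 27140001 to 27145000, 10 kb from the HOXA2 end, covered in 12 of 21 lists, 5 of HCT116 and 7 of K562. In HOXB it was 46640001 to 46645000 with 13 lists, all 7 of HCT116 and 6 of K562. In HOXC 54350001 to 54355000, on the HOXC13 side, had 11 lists, and so did 54430001 to 54435000. In HOXD 177010001 to 177015000, near the middle, had 10 lists, 5 from each cell line.

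In K562, nascent-strand regions were few in the same windows. HOXC held 1, 2 and 1 regions in early, middle and late S, and covered shares of 0.50, 1.17 and 3.17% against flanks of 28.5, 24.98 and 20.9%. HOXD held 3, 2 and 1 regions, with 5.27, 4.91 and 0.55% against 15.1, 13.98 and 19.9%. The 1 late S region of HOXD, at 177059401 to 177064200, only reached over the window's edge. Both clusters were thus poorer in start sites than their surroundings, at log2 ratios of -4.30, -3.58 and -2.40 for HOXC and -1.36, -1.34 and -3.76 for HOXD.

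HOXA and HOXB were within 2-fold of their flanks in K562. HOXA was covered to 6.63, 3.63 and 3.38% in early, middle and late S, against 5.26, 4.92 and 7.62%. HOXB was covered to 14.8, 16.7 and 5.52% against 10.7, 9.52 and 6.42%. The log2 ratios were 0.28, -0.36 and -0.98 for HOXA and 0.43, 0.75 and -0.19 for HOXB. HOXA in late S was thus close to a call below its flanks, and 4 of 10 alternatives put it past 2-fold below. The HOXB cover in early S was mostly 1 region of 21.2 kb with 816 reads at 46626801 to 46648000, and in late S the region with most reads lay at 46645201 to 46653400 (220 reads). In HOXA the region with most reads was at 27139001 to 27144200 in early S (158 reads) and at 27139601 to 27144200 in late S (140 reads). Of the 12 pairs of cluster and list, 0 were called above flanks and 6 below, all of HOXC and HOXD. In the same order the background share called above was 7.69, 8.82 and 7.36%, and the share called below was 18.7, 20.4 and 17.9%. With no replicates no test of these calls was made.

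In each cluster every HCT116 nascent-strand ratio was above every K562 one, but the share of tiles split in this way was not counted. The median log2 ratio was 2.30 in HCT116 and -0.36 in K562 for HOXA, 1.31 and 0.43 for HOXB, 1.06 and -3.58 for HOXC, and 2.52 and -1.36 for HOXD. The differences, HCT116 minus K562, were 2.66, 0.88, 4.64 and 3.88. Over the 18828 tiles the median difference was -0.05, with quartiles of -0.64 and 0.54, and 12.6% of tiles were at least 1 higher in HCT116. HOXC exceeded 99.9% of tiles, HOXD 99.9%, HOXA 99.1% and HOXB 85.0%. The K562 lists come from S phase fractions and the HCT116 lists from unfractionated cells, 3 of them with SIRT1 depletion, so cell line and these conditions cannot be told apart. The K562 lists also cover less of the genome (177 to 194 Mb against 314 to 384 Mb), and its part in the difference was not tested. With the 24000 regions of highest value from each list, the direction was kept in all 4 clusters, as it was in each of the 10 alternatives.

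**Figure D3:**
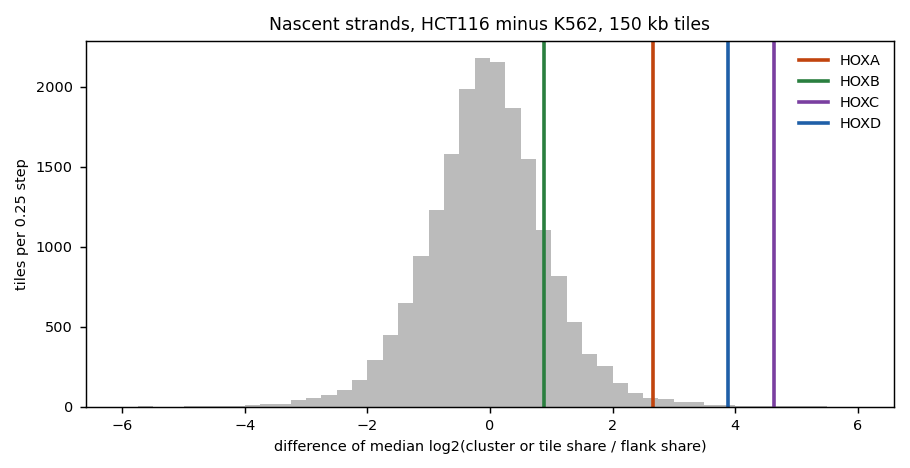
Histogram of 150 kb tiles (y axis, tiles per step of 0.25) by the difference of median log2 nascent-strand cover over flanks, HCT116 minus K562 (x axis), with the 4 clusters as vertical lines. HOXC at 4.64, HOXD at 3.88 and HOXA at 2.66 lie in the right tail, and HOXB at 0.88 lies within the bulk of the tiles.

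The pSIRT1 antibody marked the clusters in both cell lines. In HCT116 pSIRT1 covered 40.3% of HOXA, 52.3% of HOXB, 56.0% of HOXC and 33.5% of HOXD, against flanks of 3.76, 20.9, 26.3 and 2.58%. All 4 were called above flanks, with a background of 8.61%. In unfractionated K562 cells it covered 17.6, 29.0, 34.2 and 36.4% of HOXA, HOXB, HOXC and HOXD, against 4.12, 12.2, 23.6 and 5.46% in the flanks. HOXA, HOXB and HOXD were called above with a background of 7.62%, and HOXC had a log2 ratio of 0.52. HOXD in K562 was thus at 2.53 on the log2 scale for pSIRT1 and between -3.76 and -1.34 for nascent strands.

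Part of the pSIRT1 cover was in the same places in both lines. Of the HCT116 cover, 29.5% in HOXA, 45.4% in HOXB, 42.0% in HOXC and 63.0% in HOXD was also covered in unfractionated K562 cells. Of the K562 cover the shares were 67.4, 81.9, 68.8 and 58.0%. For comparison, K562 pSIRT1 covered 17.6, 29.0, 34.2 and 36.4% of the whole windows, and HCT116 pSIRT1 covered 40.3, 52.3, 56.0 and 33.5%. The shared shares were above these window shares in every cluster and closest to them in HOXC. By regions, 69.2% of the HCT116 pSIRT1 regions in the clusters overlapped one of K562, against 50.5% in the flanks and 43.8% over the genome, and in the other direction the shares were 86.7, 59.9 and 58.1%. Both pSIRT1 lists cover more of every cluster than of its flanks, and the part of that cover in these shares was not tested. The strongest HCT116 pSIRT1 region of HOXA was at 27274601 to 27287000 (338 reads), 144.6 to 157 kb into the 160 kb window. Its distance from HOXA13 was not measured. In HOXB the strongest was at 46693401 to 46707000 (544 reads). In HOXC and HOXD the strongest were at 54345801 to 54354600 (245 reads) and 176968201 to 176971400 (157 reads), on the HOXC13 and HOXD13 sides. In K562 late S the HOXA region with most reads, 27278601 to 27286800 (167 reads), lay inside the HCT116 one.

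Across the K562 fractions, pSIRT1 cover was broad in G1 and late S and thinner in the other 3 fractions. In order from G1 through the 3 parts of S phase to G2, HOXA was covered to 20.6, 2.13, 4.25, 40.0 and 11.1%. HOXB had 29.2, 2.38, 14.5, 38.1 and 6.67%, and HOXC had 38.8, 5.33, 8.83, 50.8 and 5.83% in that order. HOXD had 18.4, 2.55, 10.5, 42.2 and 9.64%. The lists as a whole differed in covered length, with 171, 22.98, 80.3, 257 and 52.2 Mb in the same order. Only the ratio to flanks was therefore compared between fractions, but it does not fully remove that difference. The 1 point added to each share exceeds the early S mean over tiles, 0.79%, and so pulls early S ratios towards 0. It also exceeds the flank shares of HOXA and HOXD in middle S (0.06 and 0.70%) and G2 (0.84 and 0.44%). Those ratios are pulled towards 0 too. The middle S ratio of HOXA rests on 2 regions with 1 in the flanks, and ran from 2.04 to 4.76 over the alternatives. Over the 10 alternatives the early S ratio ran from -0.12 to 1.58 in HOXA and from 0.14 to 2.80 in HOXD.

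By the main ratio HOXD was above its flanks in every fraction, at log2 values of 3.01, 1.47, 2.76, 3.38 and 2.88 from G1 to G2. HOXB was above in every fraction at 1.10 to 1.68, HOXA in all but early S (0.81), and HOXC in none (0.31 to 0.88). The HOXB calls were less stable: in the 10 alternatives the G2 ratio stayed at least 2-fold in 5 and the G1 ratio in 6, and with 1000 kb flanks 1 of the 14 K562 lists was called there in place of 7. With the unfractionated list, 17 of 24 pairs were called above and 0 below. From G1 to G2 the background was 8.98, 3.23, 8.91, 8.07 and 5.49%. Of the 1690 tiles called in G1, 14.4, 36.4, 42.7 and 25.9% were also called in the later fractions, in order. The value per covered kb in the 4 clusters was 0.18 to 0.46 times the list average in early S (reads) and 0.15 to 0.74 times in G2 (score).

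**Figure D4:**
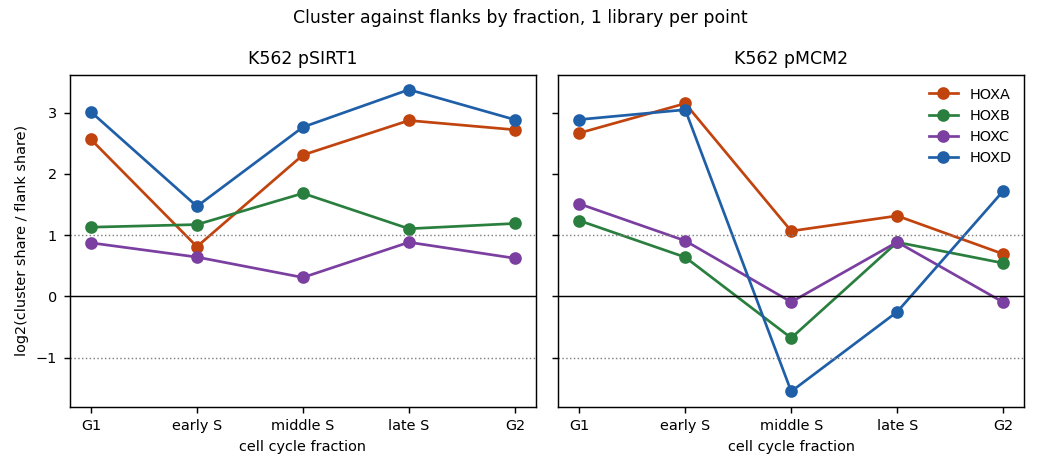
Log2 ratio of cluster to flank cover (y axis) in the 5 K562 fractions (x axis) for pSIRT1 (left) and pMCM2 (right), 1 library per point, with dotted lines at 2-fold. HOXD pSIRT1 stays between 1.47 and 3.38, while HOXD pMCM2 goes from 2.89 in G1 and 3.05 in early S to -1.55 in middle S.

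Relative to flanks, the pMCM2 lists of K562 marked HOXA and HOXD most in G1 and early S, while by covered share HOXD was highest in G2. The G2 list as a whole also covers more, 132 Mb against 47.9 to 75.5 Mb in the other K562 pMCM2 lists. From G1 to G2, HOXA was covered to 15, 16.8, 6.75, 4.38 and 9.50%, against flanks of 1.52, 1, 2.70, 1.16 and 5.50%. HOXD was covered to 15.3, 16.4, 0.36, 1.64 and 22.7%, against 1.20, 1.10, 3, 2.14 and 6.20%. Log2 ratios were 2.67, 3.15, 1.07, 1.32 and 0.69 for HOXA and 2.89, 3.05, -1.55, -0.25 and 1.72 for HOXD. In middle S the HOXD window held 1 region of 0.40 kb with 17 reads. It was thus called below its flanks there and above them in G1, early S and G2.

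HOXB and HOXC were called above their flanks by pMCM2 in G1 and in no later fraction. HOXB had 13.9, 8.10, 2.57, 6.38 and 9.81% from G1 to G2, with log2 ratios of 1.24, 0.64, -0.68, 0.88 and 0.54. HOXC had 33.7, 20.5, 13.3, 10.8 and 15.3%, with 1.51, 0.91, -0.09, 0.89 and -0.10. In all, 9 of 20 pairs were called above and 1 below. From G1 to G2 the background above was 9.61, 6.49, 10.3, 7.35 and 7.95%, and below in middle S it was 19.2%. Of 1809 tiles called in G1, 25.98, 28.03, 24.5 and 23.2% were called in the later fractions, so loss of a G1 call in later fractions was common over the genome. The fractions are single libraries, and their differences were not tested.

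In HCT116, pMCM2 covered 8.50% of HOXA, 31.5% of HOXB, 14.7% of HOXC and 14% of HOXD, against 2.80, 14.5, 27.9 and 2.42% in the flanks. HOXA, HOXB and HOXD were called above, with a background of 5.87%, while HOXC was under its flanks at a log2 ratio of -0.88. HOXC in HCT116 was thus above its flanks for start sites and pSIRT1 and under them for pMCM2, where no call was made. For pMCM2, 17.1% of tiles had a lower ratio. HOXC itself had a higher pMCM2 share than 86.8% of tiles, beside flanks at 27.9%. Its strongest pMCM2 region, at 54349601 to 54353200 (586 reads), lay in the region with most pSIRT1 reads. The HOXA value rests on weaker regions: with the 24000 highest regions of each list it was -0.29 in place of 1.32.

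H4K16ac in HCT116 covered 53.6% of HOXA, 63.2% of HOXB, 68.2% of HOXC and 42.4% of HOXD, against flanks of 8.58, 37.6, 37.8 and 4.11%. HOXA and HOXD were called above, with a background of 6.43%, and HOXB and HOXC had log2 ratios of 0.74 and 0.83. The HOXD region of highest score lay at 176969049 to 176971334, within the strongest pSIRT1 region. Of the pSIRT1 cover, 88.8% in HOXA, 91.4% in HOXB, 80.4% in HOXC and 81.1% in HOXD was also H4K16ac cover. H4K16ac covered 53.6, 63.2, 68.2 and 42.4% of the whole windows, and the part of that cover in these shares was not tested. By regions, 91 of 91 pSIRT1 regions in the clusters overlapped H4K16ac, but so did 96.7% in the flanks and 86.4% over the genome.

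Start sites and pSIRT1 met often in the HCT116 clusters. Of the pSIRT1 regions in the windows, 73 of 91 (80.2%, Wilson 95% interval 70.9 to 87.1) overlapped a nascent-strand region of the wild-type rescue by at least 1 bp, against 58.5% in the flanks and 48.7% over the genome. With the depleted clone it was 87 of 91 (95.6%, 89.2 to 98.3) against 72.6%, with the T530A rescue 81.3% against 60.4%, and after aphidicolin 76.9% against 65.1%. Start sites cover more of every cluster than of its flanks in these lists, and such shares depend on that cover. The depleted list, with the highest share, also covers the most of HOXA, HOXC and HOXD. The part of cover in the overlap was not tested for any list. In the other direction, 36 of 41 wild-type rescue regions (87.8%) overlapped pSIRT1, against 65.2% in the flanks and 58.4% over the genome. H4K16ac was overlapped by 40 of 41 (97.6%), against 89.1% in the flanks and 73.8% over the genome. Long regions meet a rule of 1 bp more easily, and region length was not matched between clusters and flanks. With region middles in place of any overlap the pSIRT1 share was 65.9%, and flanks and genome were not counted in this way. Intervals cover counting error only, and neighbouring regions are not independent.

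In K562, pSIRT1 regions of the clusters overlapped start sites less often than those of the flanks. Of 83 unfractionated pSIRT1 regions in the clusters, 12 (14.5%, 8.47 to 23.6) overlapped an early S start site, 12 a middle S one and 4 (4.82%, 1.89 to 11.7) a late S one. The flank shares were 35.1, 35.1 and 33.2%, and the shares over the genome were 19.6, 22.7 and 21.2%. K562 start sites cover less of HOXC and HOXD than of their flanks, and the part of that cover in these shares was not tested. The intervals of the clusters for early and middle S hold the genome shares, and that for late S lies below them. Of the few start sites there, 7 of 12 in early S, 8 of 15 in middle S and 4 of 7 in late S overlapped pSIRT1 (58.3, 53.3 and 57.1%), against 26.8, 34.1 and 28.02% in the flanks. Over the genome these shares were 23.8, 29.1 and 23.3%. With 7 to 15 regions, the interval for early S was 31.95 to 80.7%. Counted by region middles the cluster shares were 33.3, 26.7 and 28.6%, and flanks and genome were not counted in this way. Over the genome, pSIRT1 regions met start sites less often in K562 (19.6 to 22.7%) than in HCT116 (47.9 to 67.8%) too.

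**Figure D5:**
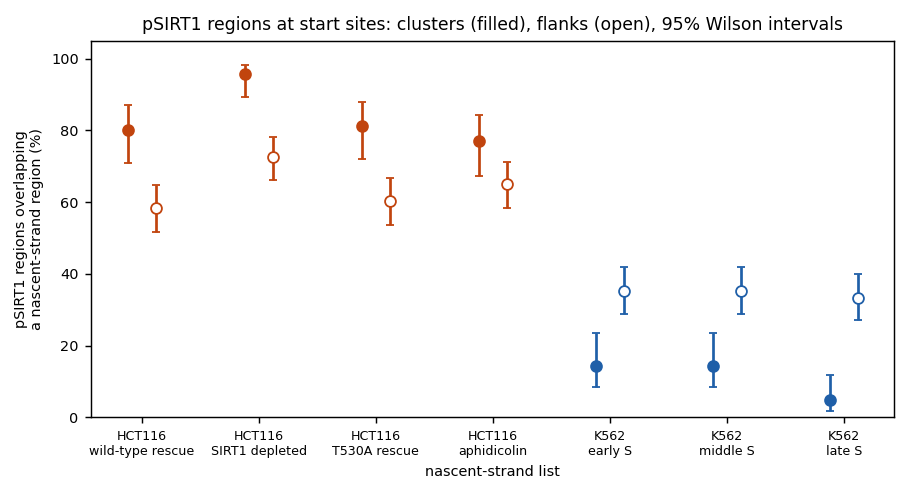
Percent of pSIRT1 regions that overlap a nascent-strand region (y axis) in the clusters (filled) and flanks (open) for each nascent-strand list (x axis), HCT116 in orange against HCT116 pSIRT1 and K562 in blue against unfractionated K562 pSIRT1, with Wilson 95% intervals. HCT116 cluster points lie at 76.9 to 95.6%, above their flanks, and K562 cluster points at 4.82 to 14.5%, below theirs. The part of nascent-strand cover in these differences was not tested.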

How the data were processed

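Lists of 21 of the 23 samples were used, and the 2 genomic controls were not analysed here. Regions are on hg19, and MACS and SICER are named per the submitters' processing notes. The aligner, versions and thresholds were not given in the sources used here. For 18 lists the deposited values were whole numbers, read as counts. The middle S and G2 lists of K562 pSIRT1, and the H4K16ac list, have a score per region as the authors deposited it. The authors' H4K16ac list also has fold enrichment (ratio) and −log10 p and q columns, which were not used further. Values only ranked regions within a list or were summed per covered kb. Depth is unknown, so its effect on covered length cannot be judged.

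Overlapping regions were merged. Tiles of 150 kb on chromosomes 1 to 22 and X were kept where tile and flanks held a region of any list. Interval code was tested on simulated data. The named regions are, per cluster and list, the one with the highest deposited value, plus the 5 kb bins in most lists. The widest regions, the bare stretches and the HOXD late S and middle S regions were chosen after their values were seen. Members, windows and lists were chosen with earlier results of these data known. With no hg19 annotation used here, gene starts, HOX cofactors, ParaHox genes and Polycomb genes were not measured. Alternatives were other flanks, pseudocounts, region ranks, merging, measures and overlaps. Python 3.11.15, numpy 2.4.6, pandas 2.3.3, scipy 1.17.1 and matplotlib 3.10.9 were used.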

Additional observations from a re-analysis of the deposited data

Results flagged for a closer look

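In 2 clusters every nascent-strand list of one cell line lay on the opposite side of the flanks from every list of the other. In HOXC the 4 HCT116 lists were above their flanks and the 3 K562 lists below, and the medians of the log2 ratio differed by 4.64. In HOXD the same held, and the medians differed by 3.88. Both median differences exceeded 99.9% of tiles, but the share of tiles in which all lists split in this way was not counted. Neither difference was tested, since each list is 1 library of its own condition.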

How the results depend on the processing

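Of 840 recomputed log2 ratios for 84 pairs of cluster and list, 3 changed sign after a call: HOXA in HCT116 pMCM2 was -0.29 with the 24000 highest regions, and with region middles HOXB was -0.44 in the depleted clone and -0.033 after aphidicolin. The number of HCT116 lists called above for HOXB, 6, became 0 with 1000 kb flanks, 3 with the higher-coordinate flank only and 0 with region middles. For HOXC it went from 4 to 1 with 250 kb flanks, with the higher-coordinate flank only and with region middles. In K562, HOXB went from 7 lists to 1 with 1000 kb flanks and 4 with region middles. HOXC in K562 went from 1 list to 5 with 1000 kb flanks, 7 with the lower-coordinate flank only, 3 with the higher-scoring 50% of regions and 2 with 24000 regions. Counts for HOXA and HOXD, in both lines, stayed within 1.5 times the main count. The nascent-strand differences between cell lines kept their direction in all 10 alternatives, with ranges of 1.997 to 3.14 for HOXA, 0.29 to 1.26 for HOXB, 3.47 to 5.78 for HOXC and 3.61 to 5.77 for HOXD. Counted by region middles, the share of cluster start sites in HCT116 pSIRT1 regions was 65.9% (wild-type rescue), 53.7% (depleted), 74.6% (T530A) and 62.3% (aphidicolin). In K562 it was 26.7% for middle S start sites, and 1.20% of unfractionated pSIRT1 regions met a late S start site. Leaving out the 2 decimal-score lists and the reverse direction of overlap were chosen after seeing the data. The 3 alternatives for gene starts were not run, for want of an hg19 annotation. No paired analysis was possible because each group has 1 library. For the other changes the cause was not tested.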

Other observations

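The highest pSIRT1 regions of K562 in early S (by reads) and in G2 (by score) were short and overlapped each other in all 4 clusters. In HOXB both spanned 46678201 to 46678600 on chromosome 17, 400 bp with 268 reads in early S and a score of 2000 in G2. In HOXA they began at 27160601 and 27160801, in HOXC both at 54443401, and in HOXD both at 177000801, with widths of 200 to 1000 bp. The median width of the whole early S list is also 400 bp. Whether such regions coincide elsewhere in the genome was not tested.

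In G1 cells of K562, pSIRT1 and pMCM2 shared different amounts of the clusters. Of the pMCM2 cover in HOXC, 59.9% was also pSIRT1 cover, and in HOXB, HOXA and HOXD it was 44.5, 29.2 and 10.7%. In the same order, G1 pSIRT1 covered 38.8, 29.2, 20.6 and 18.4% of the whole windows. The shared share thus ranked as pSIRT1 cover did, and in HOXD it was under the window's own share. By regions, 28 of 64 pSIRT1 regions of the clusters (43.8%, Wilson 95% interval 32.3 to 55.9) overlapped pMCM2, against 28.6% in the flanks and 16.9% over the genome. G1 pMCM2 covered 13.9 to 33.7% of the clusters and 1.20 to 11.2% of their flanks. The part of that cover in these shares was not tested.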
